A study of Mus musculus with 7 samples.

Results

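The genes described here encode the non-collagen part of the extracellular matrix in the developing outflow tract (OFT), the vessel that carries blood out of the embryonic heart. A list of 47 gene symbols was matched to the names in the deposited table, and all 47 were found among its 14732 genes. By role, 12 belong to elastic fibres and microfibrils, 4 are latent TGF-beta binding proteins, 11 are fibronectin and matricellular glycoproteins, 6 are versican, its link protein and small leucine-rich proteoglycans, and 14 are basement membrane genes.

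RNA-seq was performed on OFTs of mouse embryos at embryonic day 11.5, with 3 control pools (genotype WT, replicates 3, 4 and 5) and 4 pools from Gata6STOP/+ embryos (replicates 1, 3, 4 and 5). Gata6STOP/+ embryos carry a premature stop codon, made with CRISPR-Cas9, in one copy of *Gata6*, which encodes a zinc finger transcription factor. The line came from a selected founder backcrossed to C57BL/6, every cell of the embryo carries the mutation, and each library is a pool of several whole OFTs. The study's design states 3 pools per genotype, whereas 7 libraries were labelled and used. The question is how the matrix genes differ between the genotypes.

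The matrix of the OFT at this stage fills the endocardial cushions, the swellings between myocardium and endocardium from which the arterial valves form. The hyaluronan-binding proteoglycan versican gives the cushion its bulk, and fibronectin and periostin link cells to fibres. Microfibrils of fibrillin form the scaffold on which elastin is laid down in the wall of the great arteries. Sheets of laminin, nidogen, perlecan and agrin form the basement membrane under endocardium, muscle and epithelium.

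The libraries held between 17783655 and 34467710 reads on the listed genes. Values per pool are listed for control replicates 3, 4 and 5 and then for Gata6STOP/+ replicates 1, 3, 4 and 5, in CPM (read counts scaled to the normalised library size). *Gata6* itself measured 315, 257 and 286 CPM in the control pools against 268, 203, 219 and 217 CPM in the Gata6STOP/+ pools. Gata6STOP/+ replicate 1 was above control replicate 4, so the groups overlapped for the mutated gene (log2 fold change −0.34, limma adjusted *P*-value=0.389). The labelled tissue was checked against fixed marker lists. All 8 cardiomyocyte markers and all 6 smooth muscle markers were listed, with summed levels of 14252 to 19132 CPM and 2580 to 3547 CPM. Of 7 markers of pharyngeal and foregut epithelium, 2 keratin genes were listed. In pooled whole tissue, fewer cells of a type and less RNA per cell cannot be told apart.

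The 47 genes together took between 1.78% (Gata6STOP/+ replicate 3) and 2.35% (Gata6STOP/+ replicate 1) of the reads. To compare genes with each other, the CPM value was divided by the length of all annotated exons of the gene, in kilobases (kb). On this scale, 2 of the 47 genes were among the top 0.998% of the listed genes in control pools, 19 in the top 5% and 27 in the top 10%. *Sparc*, which encodes a calcium-binding matricellular protein, was the highest at 359 CPM per kb (rank 90 of the listed genes). *Fn1* (fibronectin) followed at 256 CPM per kb (rank 141) and *Tgfbi*, an integrin-binding glycoprotein gene, at 177 CPM per kb (rank 228). *Ltbp2* was the lowest at 0.128 CPM per kb (rank 14630). The plot of levels by gene shows that within each role the levels spread over more than 1 order of magnitude, and that for most genes the control and mutant points lie on top of each other.

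**Figure D1:**
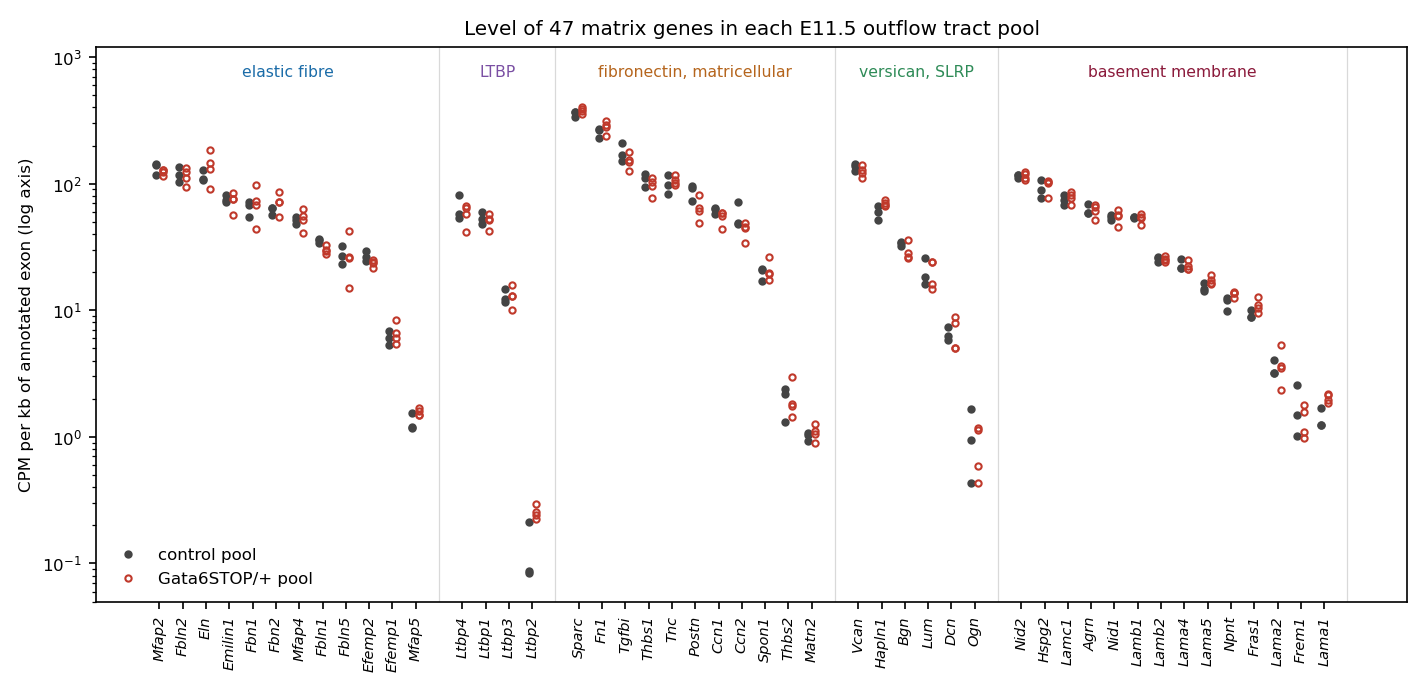
Level of each of the 47 genes in each pool, in CPM per kb of annotated exon on a log axis, grouped by role (LTBP, latent TGF-beta binding proteins; SLRP, small leucine-rich proteoglycans) and ordered by control mean. Filled grey points are the 3 control pools and open red points the 4 Gata6STOP/+ pools; *Sparc* is highest at 359 CPM per kb and *Ltbp2* lowest at 0.128 CPM per kb in control pools.

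With limma on log2(CPM+0.5), 0 of the 47 genes passed the adjusted threshold of 0.05, as did 0.0% of all 14732 genes. EdgeR's quasi-likelihood test on the recovered reads also gave 0 of 47 (0.0% of all genes), whereas edgeR's likelihood ratio test gave 1 (0.713% of all genes) and DESeq2 gave 1 (0.597%), in both cases *Lama1*. At an unadjusted limma *P*-value under 0.05 there were 10 of the 47 genes, or 21.3%, beside 8.06% of all genes. Of these, 4 were lower in Gata6STOP/+ pools (3.88% of all genes) and 6 were higher (4.17% of all genes). The same unadjusted threshold was met by 10 genes in edgeR's quasi-likelihood test (7.99% of all genes), 10 in its likelihood ratio test (7.59%) and 9 in DESeq2 (7.32%). The share of genes whose groups did not overlap was 4 of 47, or 8.51%, beside 8.47% of all genes. These were 1 lower gene (4.16% of all genes) and 3 higher genes (4.31%). Without control replicate 4 there were 5 lower genes (10.1% of all genes), and without control replicate 5, Gata6STOP/+ replicate 1 or Gata6STOP/+ replicate 3 there were 6 higher genes (8.23%, 6.63% and 7.20% of all genes). The median log2 fold change was −0.00075 over the 47 genes and −0.00073 over all genes, with 24 lower and 23 higher. There are 35 ways to part 3 against 4 pools, so an exact permutation test can give only coarse *P*-values here.

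**Figure D2:**
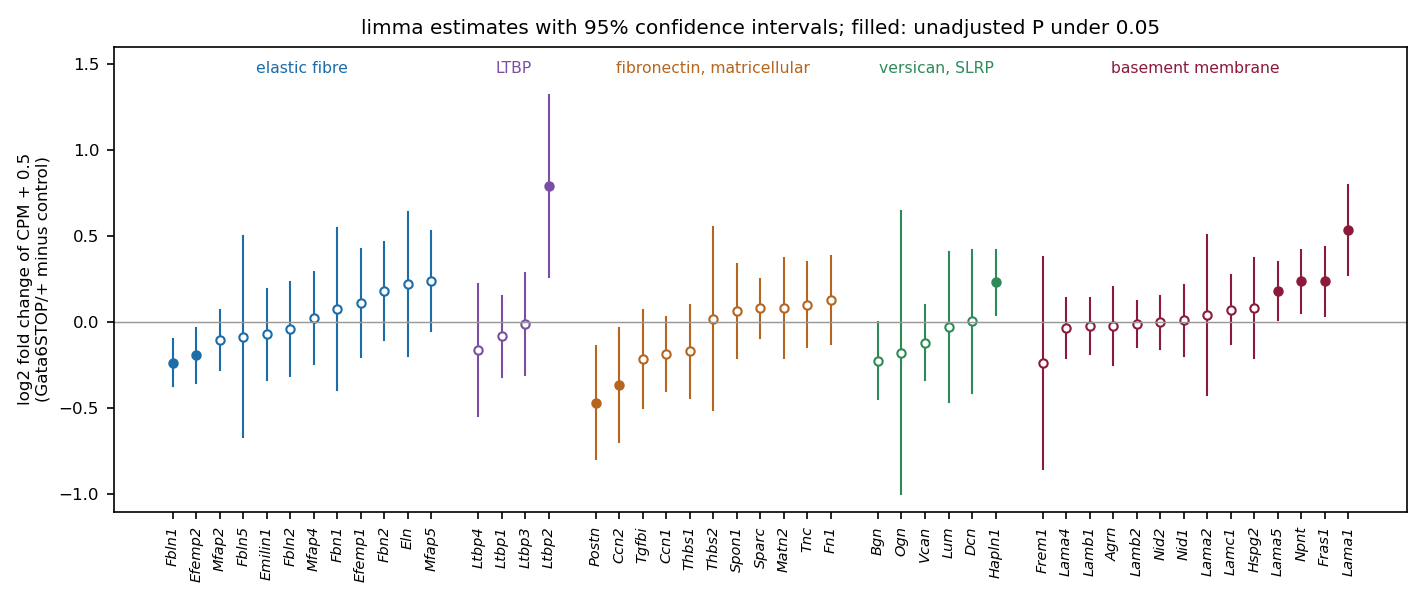
Log2 fold change (Gata6STOP/+ minus control, on the log2(CPM+0.5) scale) of each gene by limma, with its 95% confidence interval, grouped by role and ordered by size. Filled points mark the 10 genes with an unadjusted *P*-value under 0.05; the intervals of the other 37 genes include 0.

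The elastic fibre genes were split evenly in direction. Their median log2 fold change was −0.0068, with 6 of 12 lower and 6 higher. By limma, 0 of 12 passed the adjusted threshold (2 unadjusted, both lower, beside 3.88% of all genes). *Fbln1* encodes fibulin-1, a glycoprotein that binds fibronectin, versican and elastin, and is the one gene of the 47 that was lower in every Gata6STOP/+ pool than in every control pool (4.16% of all genes were). Its levels were 149, 156 and 159 CPM in control and 132, 123, 129 and 142 CPM in Gata6STOP/+ pools. The nearest pools of the 2 groups were therefore Gata6STOP/+ replicate 5 and control replicate 3. *Fbln1* (ENSMUSG00000006369, GRCm38 chromosome 15, 85205949 to 85286535, plus strand) was at 85.1% of the control mean, a log2 fold change of −0.23 (limma adjusted *P*-value=0.342, standard error 0.063).

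*Efemp2* encodes fibulin-4, which is needed for elastin cross-linking. It measured 111, 93.2 and 101 CPM in control against 90.3, 81.5, 93.7 and 89.1 CPM in Gata6STOP/+ pools. The groups overlapped only where Gata6STOP/+ replicate 4 was just above control replicate 4. The log2 fold change of *Efemp2* (ENSMUSG00000024909, chromosome 19, 5473954 to 5482517, plus strand) was −0.19 (limma adjusted *P*-value=0.534, standard error 0.073). An exon of *Mus81* overlaps *Efemp2* on the other strand. The library kit keeps the strand of the RNA, but the strand setting of the authors' counting is not given in the sources used here, so reads of the shared stretch may not be separable.

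Apart from *Mfap5*, the other elastic fibre genes differed more between the highest and the lowest Gata6STOP/+ pool than between the genotype means. Such a range tends to exceed a difference between means in unchanged genes too, and the share over all genes was not counted. *Fbn1*, *Eln* and *Fbln5*, picked for display after their values were seen, encode fibrillin-1, tropoelastin and fibulin-5, which tethers elastin to microfibrils and integrins. *Fbn1* measured 827, 861 and 663 CPM in control against 1193, 533, 879 and 816 CPM in Gata6STOP/+ pools. *Eln* measured 1045, 868 and 879 CPM against 1496, 734, 1187 and 1053 CPM. For *Fbln5* these were 160, 186 and 221 CPM against 293, 103, 183 and 177 CPM. For each of these 3 genes, Gata6STOP/+ replicate 1 was the highest of the 7 pools and Gata6STOP/+ replicate 3 the lowest, with all control pools in between.

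The distance from the highest to the lowest Gata6STOP/+ pool was 2.24-fold for *Fbn1*, 2.04-fold for *Eln* and 2.86-fold for *Fbln5*, while the control pools spanned at most 1.38-fold for any of the 3. The median standard deviation on the log2 scale over the 12 elastic fibre genes was 0.25 in Gata6STOP/+ pools and 0.16 in control pools, where it was 0.12 in both groups over all genes. Over the 47 genes, 29 (61.7%, beside 50.3% of all genes) had a larger standard deviation in Gata6STOP/+ than in control pools. The confidence intervals ran from −0.39 to 0.55 for the log2 fold change of *Fbn1*, from −0.20 to 0.64 for *Eln* and from −0.67 to 0.50 for *Fbln5*. *Mfap2*, the most abundant of the 12 per length, encodes a small microfibril protein and was far more even. It measured 173, 141 and 171 CPM in control against 155, 140, 156 and 150 CPM in Gata6STOP/+ pools, a difference within the spread of the control pools.

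**Figure D3:**
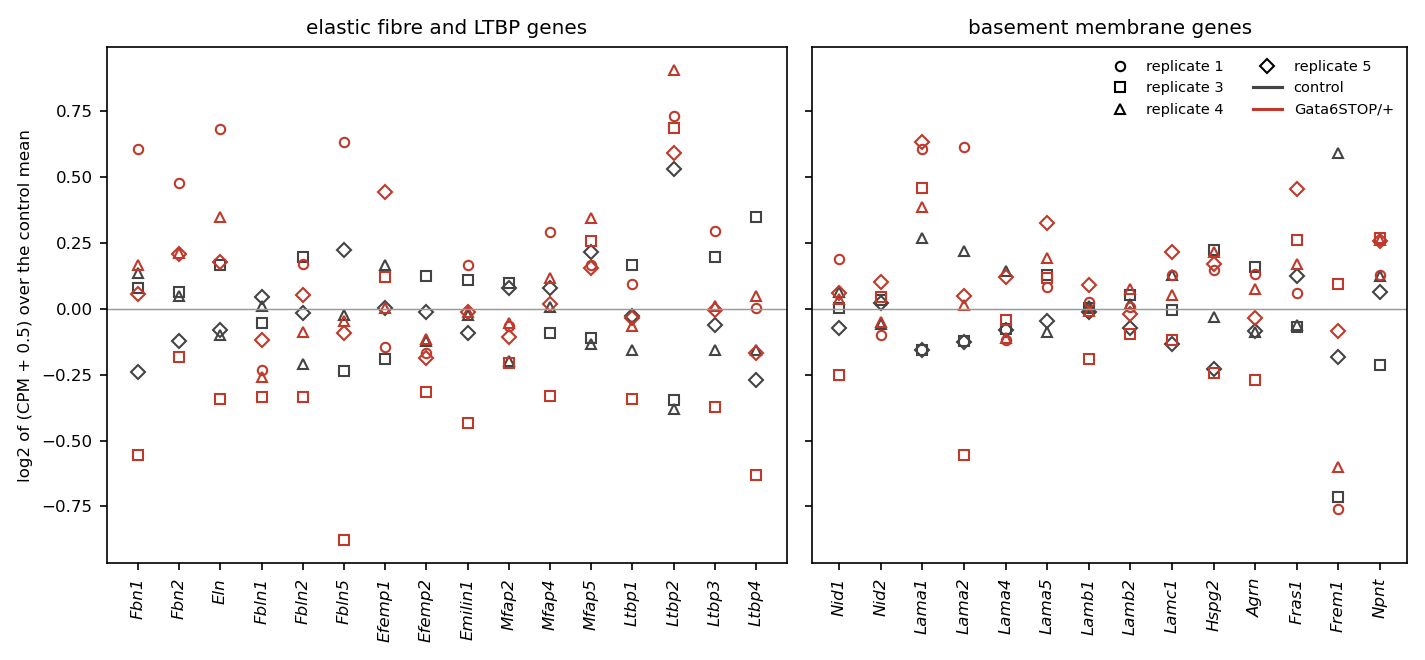
Level of each gene in each pool relative to the control mean, as log2 of (CPM+0.5), for elastic fibre genes and latent TGF-beta binding proteins (LTBP, left) and basement membrane genes (right). Control pools are grey, Gata6STOP/+ pools red, and the symbol gives the replicate number; Gata6STOP/+ replicate 3 (red squares) is the lowest pool for 10 of the 12 elastic fibre genes and Gata6STOP/+ replicate 1 (red circles) the highest for 6.

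Gata6STOP/+ replicate 3 was the lowest of the 7 pools for 26 of the 47 genes, or 55.3%, where it was the lowest for 15.2% of all genes. Gata6STOP/+ replicate 1 was the highest for 12 of the 47 (25.5%, beside 19.3% of all genes), as was control replicate 3 for another 12 (beside 19.4% of all genes). Gata6STOP/+ replicate 1 was the highest and Gata6STOP/+ replicate 3 the lowest pool for 9 genes, namely *Fbn1*, *Fbn2*, *Eln*, *Fbln5*, *Emilin1*, *Mfap4*, *Ltbp3*, *Nid1* and *Lama2*, or 19.1% beside 4.81% of all genes. The summed level of the 8 mesenchyme markers was 2921 CPM in Gata6STOP/+ replicate 3 and 4317 CPM in Gata6STOP/+ replicate 1, the lowest and the highest of all pools, and 3703 to 4195 CPM in the control pools. That order rested on *Col3a1*, a fibrillar collagen gene, at 1364 and 2449 CPM in these 2 pools. Without *Col3a1* the sum over the other 7 markers was 1557 CPM in Gata6STOP/+ replicate 3 and 1868 CPM in Gata6STOP/+ replicate 1, within 1549 to 2068 CPM over all pools, with control replicate 3 highest and Gata6STOP/+ replicate 4 lowest. The 8 cardiomyocyte markers were highest in Gata6STOP/+ replicate 3 (19132 CPM) and lowest in Gata6STOP/+ replicate 1 (14252 CPM), with 16812 to 18541 CPM in control pools, and these 2 pools kept those places without *Myh7*, the most abundant of the 8. The 6 macrophage markers were highest in Gata6STOP/+ replicate 3, at 85.1 CPM, against 35.5 to 63.7 CPM in the other pools. Their part in the differences of the matrix genes was not tested. Without Gata6STOP/+ replicate 3, the median log2 fold change of the 47 genes was 0.06. Since that pool was the lowest for 26 of the 47 genes, a rise was to be expected. *Eln*, *Fbn2* and *Fn1* were then also higher in every Gata6STOP/+ pool than in every control pool (7.20% of all genes were). Without Gata6STOP/+ replicate 1 the median was −0.06.

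Latent TGF-beta binding proteins hold the inactive growth factor in the matrix, except *Ltbp2*, whose protein binds microfibrils without holding TGF-beta. *Ltbp2* measured 0.719, 0.690 and 1.74 CPM in control pools, from 15, 20 and 31 reads, and 2.07, 1.99, 2.40 and 1.83 CPM in Gata6STOP/+ pools, from 59, 55, 59 and 63 reads. Every Gata6STOP/+ pool was above every control pool (4.31% of all genes were), with Gata6STOP/+ replicate 5 and control replicate 5 close together. The log2 fold change of *Ltbp2* (ENSMUSG00000002020, chromosome 12, 84783212 to 84876532, minus strand) was 0.79 (limma adjusted *P*-value=0.401, standard error 0.240), and at so few reads it depends on the added constant, being 0.43 with a constant of 2. Without control replicate 5 it was 1.09. The noncoding gene *D030025P21Rik* overlaps an exon of *Ltbp2* on the other strand.

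*Ltbp4*, the most abundant of the 4 per length, measured 530, 373 and 345 CPM in control against 417, 268, 430 and 370 CPM in Gata6STOP/+ pools. Control replicate 3 was the highest pool and Gata6STOP/+ replicate 3 the lowest, and the other 5 pools were mixed. For *Ltbp1*, *Ltbp3* and *Ltbp4* the log2 fold change lay between −0.16 and −0.01, with adjusted *P*-values by limma of 0.847 to 0.989.

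Among the 11 fibronectin and matricellular genes, *Postn* and *Ccn2* were the 2 with an unadjusted limma *P*-value under 0.05. Both were lower (beside 3.88% of all genes). *Postn* encodes periostin, a matricellular protein of the cushion mesenchyme. It measured 827, 640 and 809 CPM in control against 702, 424, 555 and 533 CPM in Gata6STOP/+ pools. Gata6STOP/+ replicate 1 lay above control replicate 4, and the other 3 Gata6STOP/+ pools were below every control pool. *Postn* (ENSMUSG00000027750, chromosome 3, 54361109 to 54391037, plus strand) was at 73.0% of the control mean, a log2 fold change of −0.47 with a 95% confidence interval from −0.80 to −0.14 (limma adjusted *P*-value=0.433). With the replicate number as a block, where Gata6STOP/+ replicate 1 drops out, edgeR's likelihood ratio test gave −0.59 (adjusted *P*-value=0.010). This was the 1 of 16 alternatives under 0.05.

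*Ccn2* encodes connective tissue growth factor, a secreted CCN family protein that binds integrins. It measured 141, 205 and 137 CPM in control against 127, 97.3, 141 and 129 CPM in Gata6STOP/+ pools. Control replicate 4 stood above all other pools, which overlapped. The log2 fold change of *Ccn2* (ENSMUSG00000019997, chromosome 10, 24595442 to 24598683, plus strand) was −0.37 (95% confidence interval −0.70 to −0.04, limma adjusted *P*-value=0.569) and moved to −0.18 without control replicate 4. Its family member *Ccn1* was at 88.5% of the control mean, with a log2 fold change of −0.18 (limma adjusted *P*-value=0.681).

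*Sparc*, the most abundant of this role per length, measured 1401, 1280 and 1396 CPM in control against 1346, 1424, 1460 and 1518 CPM in Gata6STOP/+ pools. The groups overlapped, and the 95% confidence interval of its log2 fold change ran from −0.09 to 0.25. *Fn1* had a log2 fold change of 0.13 (interval −0.13 to 0.38) and *Tnc*, which encodes tenascin-C, of 0.10 (interval −0.15 to 0.35). The other genes of this role, *Tgfbi*, *Thbs1*, *Thbs2*, *Spon1* and *Matn2*, had log2 fold changes between −0.21 and 0.08, and the thrombospondin genes *Thbs1* and *Thbs2* differed in level, with 108 and 1.95 CPM per kb in control pools.

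Promoter sequences came from the RefSeq table for GRCm38.p6, which matched 31 of the 47 genes, with 44 promoters, and 7 of the 10 genes with an unadjusted *P*-value under 0.05. In the 250 bases before the start, the letters GATAA, the core that GATA factors bind, were found on either strand in 4 of these 44 promoters (9.09%) and in 22.6% of all 32851 promoters. The genes were *Efemp1*, *Lama2*, *Ltbp2* and *Mfap2*. The letters TATAAA, the core promoter element that places the start in some genes, were found in 6 of the 44 promoters (13.6%, beside 12.4% of all promoters), those of *Ccn1*, *Ogn*, *Postn*, *Thbs2* and *Tnc*. The letters CCGCCC, found in GC boxes, were in 26 of the 44 (59.1%, beside 32.7%). The windows of *Ltbp2* and *Postn* are shown because, of those 7 genes, these 2 held a GATAA or a TATAAA match, which is in capitals. Both are written 5′ to 3′ on the strand of the gene.
Ltbp2 (chr12:84876507-84876535, minus strand): gggcatggcgtgGATAAaagaggcgaaaa
Postn (chr3:54361069-54361097, plus strand): agcccagagctaTATAAActcagctctcc
The first base of the match lies 32 bases before the RefSeq start of *Ltbp2* and 26 bases before that of *Postn*. The gene model of *Ltbp2* in the GENCODE annotation begins at 84876532, within the window shown. These matches describe the letters and do not show binding.

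The log2 fold changes of versican and its link protein lay on opposite sides of 0, and neither passed the adjusted threshold. *Vcan* encodes versican and *Hapln1* the link protein that fixes it to hyaluronan, and the 2 genes are neighbours on chromosome 13 (*Hapln1* from 89539796 to 89611652 on the plus strand, *Vcan* from 89655312 to 89742509 on the minus strand). *Hapln1* measured 352, 305 and 395 CPM in control against 391, 397, 438 and 414 CPM in Gata6STOP/+ pools. Control replicate 5 was above Gata6STOP/+ replicate 1, and no other pools overlapped. *Hapln1* had a log2 fold change of 0.23 (limma adjusted *P*-value=0.522, standard error 0.086) and 0.14 without control replicate 4.

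*Vcan* measured 2063, 1831 and 2005 CPM in control against 2037, 1600, 1762 and 1859 CPM in Gata6STOP/+ pools. The groups overlapped, with a log2 fold change of −0.12 and a 95% confidence interval from −0.34 to 0.10. The level of *Hapln1* relative to that of *Vcan*, each per kb of exon, was 0.419, 0.408 and 0.482 in the control pools and 0.471, 0.607, 0.609 and 0.546 in the Gata6STOP/+ pools, in the same order. This ratio was formed after the values were seen and was not tested, and the groups overlapped at Gata6STOP/+ replicate 1.

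The small leucine-rich proteoglycans bind collagen fibrils. Biglycan (*Bgn*) had a log2 fold change of −0.22 (95% confidence interval −0.45 to 0.0026, limma adjusted *P*-value=0.628), and Gata6STOP/+ replicate 5 was above all control pools at 218 CPM while the other 3 Gata6STOP/+ pools, at 157 to 173 CPM, were below them. Lumican (*Lum*) and decorin (*Dcn*), neighbours on chromosome 10, had log2 fold changes of −0.03 (interval −0.47 to 0.41) and 0.0050 (interval −0.41 to 0.42). *Ogn* had few reads, from 23 to 123 in a pool, and its log2 fold change of −0.18 had a standard error of 0.373.

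**Figure D4:**
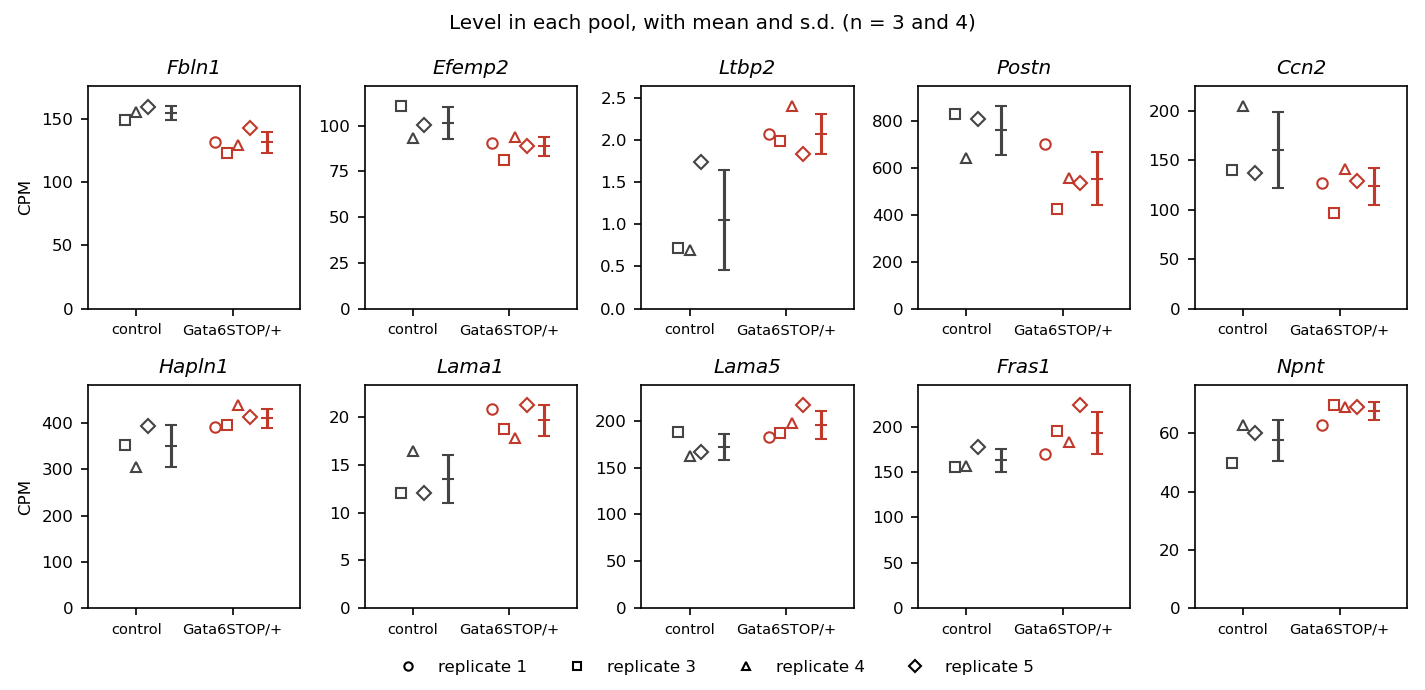
Level in CPM, from 0, of the 10 genes with an unadjusted limma *P*-value under 0.05 in each control (grey) and Gata6STOP/+ (red) pool. The symbol gives the replicate number, and the bar beside the points is the mean with its s.d. (*n*=3 control and *n*=4 Gata6STOP/+ pools); *Fbln1* is lower, and *Ltbp2*, *Lama1* and *Npnt* are higher, in every Gata6STOP/+ pool than in every control pool.

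In the basement membrane group, 4 of 14 genes had an unadjusted limma *P*-value under 0.05. All 4 were higher in Gata6STOP/+ pools (beside 4.17% of all genes higher and 3.88% lower), and this shared direction was not tested. The median log2 fold change of the 14 genes was 0.03, and 0 passed the adjusted threshold by limma. *Lama1* encodes the laminin alpha 1 chain, typical of early embryonic and epithelial basement membranes. It measured 12.1, 16.4 and 12.1 CPM in control against 20.9, 18.8, 17.9 and 21.3 CPM in Gata6STOP/+ pools. Every Gata6STOP/+ pool was above every control pool, at 146% of the control mean. The log2 fold change of *Lama1* (ENSMUSG00000032796, chromosome 17, 67697259 to 67822647, plus strand) was 0.54, with a 95% confidence interval from 0.27 to 0.80. Its limma adjusted *P*-value of 0.241 was the smallest of the 47 genes. It was 0.052 without control replicate 4, 0.024 by edgeR's likelihood ratio test and 0.026 by DESeq2, and it ranged from 0.024 to 0.598 over the 16 alternatives.

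*Lama5* encodes the alpha 5 chain, found in many mature basement membranes. It measured 188, 162 and 167 CPM in control against 182, 187, 197 and 216 CPM in Gata6STOP/+ pools. Control replicate 3 lay among the Gata6STOP/+ pools. *Lama5* had a log2 fold change of 0.18 (limma adjusted *P*-value=0.577, standard error 0.076). *Lama4*, whose chain is made by endothelium and muscle, was the most abundant alpha chain at 22.9 CPM per kb in control pools and had a log2 fold change of −0.03 (interval −0.21 to 0.14).

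Of the level per kb summed over the 4 alpha chain genes, *Lama1* made up 2.93%, 3.75% and 3.07% in the control pools and 4.84%, 4.53%, 4.21% and 4.42% in the Gata6STOP/+ pools. *Lama4* made up 50.8% to 55.8% in control and 47.2% to 51.7% in Gata6STOP/+ pools, *Lama5* 31.4% to 38.7% and 35.9% to 39.5%, and *Lama2* 8.11%±0.777 (s.d., *n*=3) and 8.21%±2.76 (s.d., *n*=4). The share of *Lama1* thus did not overlap between the groups, while it was the lowest of the 4 shares in every pool. The sum was 42.9±2.26 CPM per kb for the alpha chains, 79.4±1.56 for the beta chains (*Lamb1* and *Lamb2*) and 74.2±6.70 for the gamma chain *Lamc1* in control pools (s.d., *n*=3), and 45.2±3.01, 78.6±5.13 and 78.2±7.52 in Gata6STOP/+ pools (s.d., *n*=4). The alpha chain genes were thus lower per length than their beta and gamma partners in both genotypes.

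**Figure D5:**
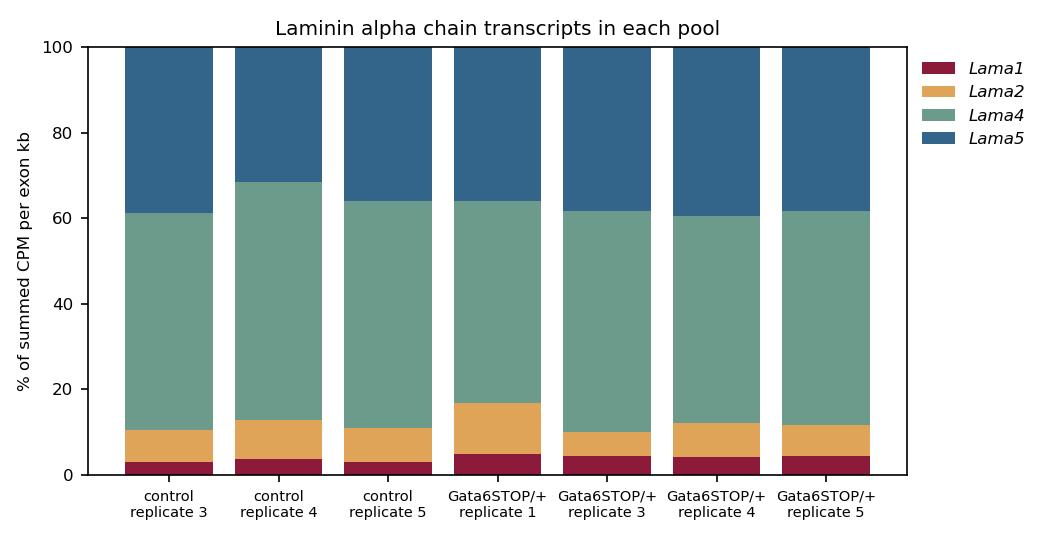
Share of each of the 4 laminin alpha chain genes in their summed level (CPM per kb of exon, in percent) for each pool; bars are stacked from 0 to 100%. *Lama1* (lowest segment) is 2.93% to 3.75% in control and 4.21% to 4.84% in Gata6STOP/+ pools, and *Lama4* is the largest segment in all 7 pools.

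*Fras1* encodes a large protein of epithelial basement membranes. It measured 155, 156 and 178 CPM in control against 170, 195, 184 and 223 CPM in Gata6STOP/+ pools. Only Gata6STOP/+ replicate 1 and control replicate 5 overlapped. Its log2 fold change was 0.24 (limma adjusted *P*-value=0.534, standard error 0.091), and that of its partner *Frem1* was −0.24 with an interval from −0.85 to 0.38, control replicate 4 being the highest pool at 35.6 CPM. *Gm42604* overlaps an exon of *Fras1* on the other strand.

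*Npnt* encodes nephronectin, a ligand of integrin alpha 8. It measured 49.7, 62.9 and 60.3 CPM in control against 63.0, 69.6, 69.2 and 69.1 CPM in Gata6STOP/+ pools. The groups did not overlap, but Gata6STOP/+ replicate 1 and control replicate 4 were almost equal. The log2 fold change of *Npnt* (ENSMUSG00000040998, chromosome 3, 132881745 to 132950291, minus strand) was 0.24 (limma adjusted *P*-value=0.497, standard error 0.084) and 0.14 without control replicate 3.

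For several core genes of the basement membrane the interval included 0, with widths that differed between genes. *Nid2* encodes nidogen-2, which links laminin to collagen IV, and was the most abundant of the 14 per length. It measured 610, 572 and 606 CPM in control against 556, 615, 575 and 639 CPM in Gata6STOP/+ pools. The groups were intermixed, and the 95% confidence interval of the log2 fold change was −0.15 to 0.15. The intervals were −0.14 to 0.13 for *Lamb2*, −0.18 to 0.14 for *Lamb1*, −0.20 to 0.22 for *Nid1*, −0.13 to 0.27 for *Lamc1*, −0.25 to 0.21 for *Agrn* (agrin) and −0.21 to 0.37 for *Hspg2* (perlecan).

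A ratio of 2 genes within a pool does not depend on the scaling between pools, and 5 such ratios were tested. Per kb of exon, *Fbn2* and *Fbn1* were near parity in all pools (ratios of 0.876 to 1.24), *Nid2* was 1.74-fold to 2.61-fold above *Nid1*, and *Lamb2* was at 0.438 to 0.505 of *Lamb1*. The ratio of *Lama5* to *Lama4* was 0.762, 0.563 and 0.677 in the control pools and 0.762, 0.739, 0.819 and 0.765 in the Gata6STOP/+ pools. Its difference was 0.22 on the log2 scale (exact two-sided permutation *P*=0.0857, adjusted *P*=0.429 over 5 ratios) and was 0.10 without control replicate 4. The other 4 ratios had an exact permutation *P* of 0.514 to 0.971. None of the 5 had an exact permutation *P* under 0.05, and with 35 ways to part the pools this test is coarse.

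The remainder of the non-collagen matrix was read from a list of other glycoproteins, proteoglycans and hyaluronan genes, of which 95 were in the table. Of these, 0 passed the adjusted threshold by limma (0.0% of all genes), with 3 lower (beside 3.88% of all genes) and 14 higher (beside 4.17%) at an unadjusted *P*-value under 0.05. Every Gata6STOP/+ pool was above every control pool for 9 of the 95 (9.47%, beside 4.31% of all genes) and below for 1 (1.05%, beside 4.16%). The latter was *Spp1* (osteopontin), named after its values were seen, with means of 2.30 CPM in control and 1.29 CPM in Gata6STOP/+ pools. Their median log2 fold change was 0.09, beside −0.00073 over all genes. Among those higher in every Gata6STOP/+ pool were *Crispld2* (log2 fold change 0.58), *Spock3* (0.51), *Fmod* (fibromodulin, 0.43), *Sparcl1* (0.37), *Lamc3* (a laminin gamma chain, 0.37), *Ntn4* (netrin-4, a laminin-binding protein, 0.33) and *Cd44* (a hyaluronan receptor, 0.21), with limma adjusted *P*-values of 0.276 to 0.451.

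The summed level of the 2 listed epithelial keratin markers was 69.9 to 110.0 CPM in control pools and 83.5 to 117 CPM in Gata6STOP/+ pools, so the groups overlapped, and its part in the values of basement membrane genes was not tested.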

How the data were processed

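Pools were grouped by genotype from the sample titles. After trimming with Cutadapt, the authors estimated gene counts with RSEM (GRCm38, Ensembl annotation), normalised them by the TMM method of edgeR and left out weakly expressed genes. All 14732 listed genes reach 1 CPM in 3 or more pools. The deposited values are CPM of the adjusted library size, 1 column per pool. Values are per gene, so isoforms of *Fn1*, *Tnc* or *Vcan* are not resolved. In every pool 100% of the values were whole multiples (within 0.01 of a read) of 1 step, which gave the reads. Where no separate cultures or litters are named, *P*-values measure the spread between these pools only.

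The two-sided test was limma 3.58.1 in R 4.3.3, with a trended prior, on log2(CPM+0.5) of all 7 pools without covariates, with Benjamini-Hochberg adjustment over 14732 genes and a threshold of 0.05. Alternatives were edgeR 4.0.16 and DESeq2 1.42.0 on the recovered reads, other constants (0.1 and 2), a mean of at least 5 CPM, median-of-ratios rescaling, the replicate number as a block and leaving out each pool. In simulated reads for this comparison (14732 genes, 200 changed), limma called 66% of genes changed by 0.5 on the log2 scale, 99% of those changed by 1, and 8 unchanged genes. The 200 genes were drawn at random from those with a mean of at least 5 CPM, so these shares need not hold for the 47 genes. The median standard deviation on the log2 scale over the 47 genes was 0.17 in control and 0.20 in Gata6STOP/+ pools. Over all genes it was 0.12 in both groups.

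Positions and exon lengths are from GENCODE M21 (GRCm38). Values in every pool are given for genes whose groups do not overlap or whose unadjusted *P*-value is under 0.05, and for the most abundant other gene per exon length in each role. Of the other matrix genes, those that do not overlap at a mean of at least 5 CPM are named, at most 8. An exception is *Spp1*, which is below that level. A result that this rule would name is not reported here. The 47 genes and all lists were chosen with earlier results of these data known. None of the 47 shares exon sequence with another gene on its strand, and 16 do on the other strand. Marker lists not quoted in the text (sums in control and then Gata6STOP/+ pools) were endothelium and endocardium (619 to 810 and 679 to 831 CPM), neural crest and glia (198 to 237 and 163 to 204 CPM), mesothelium and epicardium (403 to 478 and 359 to 499 CPM), neuron (49.3 to 71.3 and 55.1 to 64.6 CPM) and red cell (1947 to 4663 and 2247 to 6046 CPM).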

Additional observations from a re-analysis of the deposited data

Results flagged for a closer look

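In *Npnt*, Gata6STOP/+ replicate 1, at 63.0 CPM, stood apart from the other 3 Gata6STOP/+ pools, which were at 69.1 to 69.6 CPM. Its gap to the nearest pool was 0.918 of the range of the group, above the critical value of Dixon's test for 4 samples. This was 1 of 47 genes examined in the Gata6STOP/+ pools, where chance alone marks about 1 in 20.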

How the results depend on the processing

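By limma, 0 of the 47 genes passed the adjusted threshold in any fit, whereas edgeR's likelihood ratio test (with and without the block) and DESeq2 called 1 each, *Lama1* or, with the block, *Postn* (adjusted *P*-value=0.010; 0.801% of all genes were called there). The cause was not tested. Leaving out 1 pool at a time, 0 to 0 genes were called, 8 to 12 had an unadjusted *P*-value under 0.05, the median log2 fold change was −0.06 to 0.06, the genes lower in every Gata6STOP/+ pool numbered 1 to 5 and those higher 3 to 6. Lower genes were 2 without control replicate 3 (6.98% of all genes), Gata6STOP/+ replicate 1 (6.18%) or Gata6STOP/+ replicate 5 (5.29%). They were 3 without Gata6STOP/+ replicate 4 (6.77%) and 5 without control replicate 4 (10.1%). Higher genes were 6 without control replicate 5 (8.23% of all genes), Gata6STOP/+ replicate 1 (6.63%) or Gata6STOP/+ replicate 3 (7.20%). With fewer pools more genes do not overlap by construction (up to 10.1% of all genes lower). Of the ratios, *Lamb2* to *Lamb1* (−0.017 to 0.054), *Nid2* to *Nid1* (−0.11 to 0.082) and *Thbs2* to *Thbs1* (−0.15 to 0.45) changed sign. The 10 named log2 fold changes kept their sign in all alternatives. Same-numbered pools deviated from their group means with correlations of −0.047, −0.27 and −0.017 (replicates 3, 4 and 5). Between differently numbered pools these correlations were −0.15 to 0.22. With so few pools they cannot decide whether the replicate numbers pair the pools. With the replicate block, in which Gata6STOP/+ replicate 1 has no partner and drops out, limma called 0 genes and edgeR's likelihood ratio test 1. *Ltbp2* and *Ogn*, with 15 to 123 reads in a pool, are limited by depth, while each of the other 45 genes had at least 90 reads in every pool.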
